A study of Mus musculus with 32 samples.

Results

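The genes described here are the mouse amyloid precursor gene App, the secretase genes Bace1, Bace2, Adam10, Psen2, Ncstn, Aph1a and Psenen, and Thy1, which are 9 of the 22337 genes in the deposited tables. They were taken by their symbols from the table of sorted meningeal lymphatic endothelial cells (mLECs) and joined by gene identifier to the table of hippocampus (HPC) and meninges. All 9 were measured in each of the 32 samples, and all passed the filter on low values in each tissue, which kept genes that reached an FPKM of 1 in 3 or more of its samples. FPKM counts fragments relative to transcript length and to the number of mapped reads, so that levels of genes of different length can be set side by side.

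The amyloid precursor protein is a membrane protein of neurons and many other cells. When β-secretase, mainly BACE1, cuts it first, γ-secretase then releases amyloid-β. γ-Secretase is a complex of a presenilin, such as the product of Psen2, with nicastrin (Ncstn), APH-1 (Aph1a) and PEN-2 (Psenen). ADAM10, an α-secretase, cuts within the amyloid-β sequence, and BACE2 is the close relative of BACE1. Thy1 encodes a glycoprotein on the surface of neurons, T cells and fibroblasts, and its regulatory sequence is widely used to drive transgenes in neurons. In 5xFAD mice it drives transgenes for human APP and a human presenilin with familial Alzheimer's disease mutations. The files count reads per mouse gene, so reads of the human transgenes, of the Thy1 sequence in the transgene and of the mouse genes themselves cannot be told apart where they were assigned to the same gene.

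All mice were male, 6 months of age and on a C57BL/6J background. WT mice were littermates without the transgenes. Light-treated 5xFAD mice received near-infrared light through the scalp for 10 min, 3 times a week for 4 weeks, and control mice went through the same anaesthesia and shaving under indoor lighting. Each HPC or meninges sample came from a single animal's tissue, and mLECs were sorted from single meninges as live CD45-CD31+PDPN+ cells. HPC had 4 WT, 4 untreated 5xFAD and 4 light-treated 5xFAD samples (5xFAD+L in the plots), and meninges and mLECs each had 4, 3 and 3. The design asks whether the transgenes and light changed expression in each tissue.

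The total count of an HPC sample lay between 13952825 and 23856476, that of a meninges sample between 6601143 and 14708202, and that of an mLEC library between 14231415 and 24207326. The HPC libraries held neuronal markers at a summed FPKM of 3917 to 5357. The mLEC libraries held 4015 to 7368 genes with an FPKM of at least 1, against 12104 to 12824 in HPC. Pecam1, which encodes CD31, was at 189 FPKM or more in all 10 mLEC libraries and Ptprc, which encodes CD45, was at 0 in all 10. Pdpn, the other gene of the sort, was at 0 in 4 of 10 libraries, and Lyve1 and Pdpn were both at 0 in 2 of the 4 WT libraries, replicates 2 and 4, which go against their label in this respect. Of the other lymphatic markers, Ccl21a was at 3.54 and 0 FPKM in these libraries against 998 or more in the others, Prox1 at 0 and 5.71 against 0 to 4.20, and Flt4 at 34.4 and 30.3 against 3.83 to 81.6. Pdpn was also at 0 in untreated 5xFAD replicates 2 and 4. The summed FPKM of 5 blood endothelial markers was 816 to 3327 in WT and 1126 to 2262 in untreated 5xFAD mLEC libraries. In light-treated mLEC libraries it was 871 to 1685. The part of blood endothelial cells in the mLEC libraries was not tested.

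In the GRCm38 assembly (GENCODE vM21), App lies on the minus strand of chromosome 16 from 84949685 to 85173766, and Bace2 on the plus strand of the same chromosome from 97356742 to 97442936. Chromosome 9 holds Thy1 from 44043384 to 44048579, Bace1 from 45838580 to 45864399 and Adam10 from 70678997 to 70780229, all on the plus strand. Psen2 and Ncstn lie on the minus strand of chromosome 1, from 180227004 to 180263438 and from 172066013 to 172082795. Aph1a lies on the plus strand of chromosome 3 from 95893969 to 95898288, and Psenen on the minus strand of chromosome 7 from 30561863 to 30563627. Psenen overlaps U2af1l4, Ncstn overlaps Copa, Aph1a overlaps Car14 and Bace1 overlaps Rnf214, each a coding gene on the opposite strand. Smart-seq2 does not mark strand, so reads in those overlaps cannot be told apart.

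In WT HPC, App was the most abundant of the 9 genes, at an FPKM of 217 ± 11.7 (SD, n = 4), followed by Thy1 at 181 ± 8.13 and Psenen at 80.8 ± 7.74. The lowest WT sample for App, 205, was above the highest for Thy1, 189. Bace1 at 21.6 ± 2.21, Ncstn at 21.1 ± 1.45 and Aph1a at 20.4 ± 1.21 overlapped and had no order beyond their spread. Adam10 followed at 12.3 ± 1.03 and Psen2 at 8.43 ± 1.15, with no shared values. Bace2 was near the floor at 0.758 ± 0.323. Only 1 of 4 WT samples and 0 of 4 light-treated samples reached an FPKM of 1 for Bace2, so it passed the filter through the 4 untreated 5xFAD samples.

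In HPC, Thy1 was the single member that edgeR called between untreated 5xFAD and WT mice. DESeq2 called 4 (App, Bace1, Bace2 and Thy1) and limma on log2(FPKM + 1) 2 (Bace2 and Thy1). Both used the same filter, which Bace2 passed through the untreated 5xFAD samples, where it was high. The share of all genes that DESeq2 and limma called is not given here, so their counts have no background. WT samples had a Thy1 FPKM of 186, 170.3, 181 and 189, and untreated 5xFAD samples had 622, 439, 407 and 573. Every 5xFAD sample was more than 2 times the highest WT sample. Thy1 rose 2.87-fold (log2 fold change 1.52, SE 0.14, adjusted p = 3.15e-05, edgeR's quasi-likelihood test with Benjamini-Hochberg adjustment over 12981 genes), and it ranked 17 of all genes tested by p. With 1 of 9 members called by edgeR, its background was 8.54% of the genes tested in this comparison. Thy1 was called in all 16 alternative settings, DESeq2 and limma among them, with log2 fold changes from 1.39 to 1.62. The summed FPKM of 7 T cell markers was 0.84 to 1.57 in WT and 1.53 to 3.47 in untreated 5xFAD samples, which overlapped. Of these markers, 1 of 7 was past the filter and none was called. Fibroblast markers summed to 27.1 to 46.2 in WT and 24.96 to 106 in untreated 5xFAD samples, with 2 of 6 called higher. The summed FPKM of 7 microglial markers, all called higher, was 233 to 267 in WT and 514 to 730 in untreated 5xFAD samples. Of 13 neuronal markers, 1 had a positive log2 fold change, with a median of -0.17. The part of these cells, and of the Thy1 sequence in the transgene, in the Thy1 values was not tested.

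**Figure D1:**
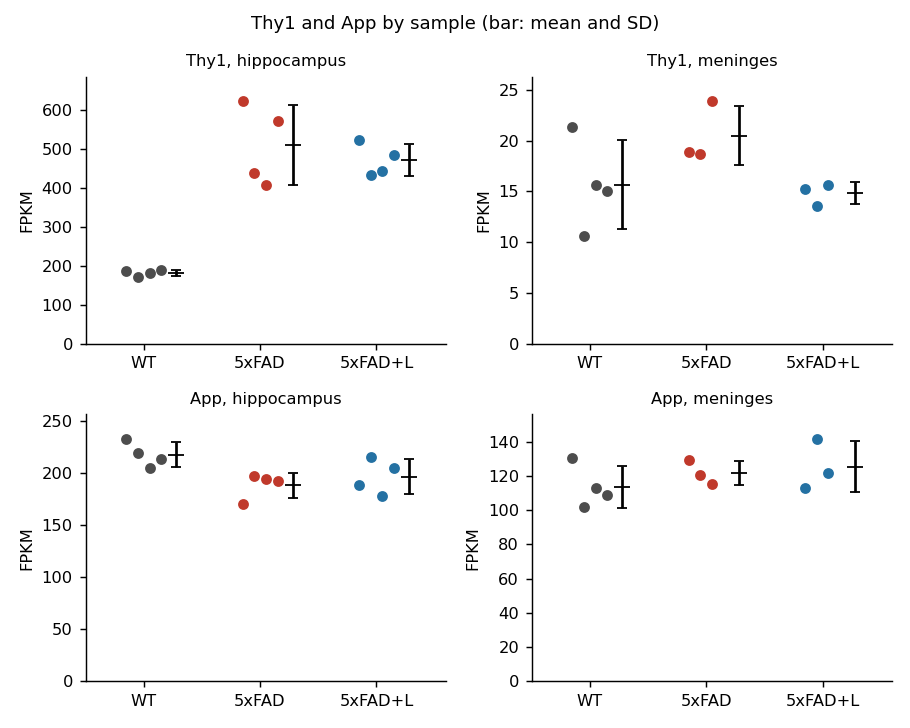
Thy1 (top) and App (bottom) in hippocampus (left) and meninges (right), as FPKM on linear axes from 0. Each point is 1 sample and the bars show the mean and SD of each group (n = 4 in hippocampus and in WT meninges, n = 3 in the other meninges groups). In hippocampus all 5xFAD samples, with or without light, lie between 407 and 622 for Thy1, above the WT samples, which reach 189.

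Light-treated 5xFAD samples had a Thy1 FPKM of 522, 434, 444 and 486. These values lay within the range of the untreated 5xFAD samples and above every WT sample. Thy1 was 2.65-fold higher than in WT mice (log2 fold change 1.41, SE 0.14, adjusted p = 1.11e-04, edgeR), again the only member called, against a background of 3.59% of genes. The comparison with WT shares its WT samples with the one before. Between light-treated and untreated 5xFAD mice the log2 fold change of Thy1 was -0.12 (SE 0.14, adjusted p = 0.675). The SD of Thy1 over samples was 104 FPKM in untreated and 40.3 in light-treated 5xFAD mice.

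App itself did not pass edgeR's test in any HPC comparison. Its FPKM was 233, 219, 205 and 213 in WT samples, 170.2, 196, 194 and 192 in untreated 5xFAD samples and 188, 215, 178 and 204 in light-treated ones. All untreated 5xFAD samples lay below all WT samples, and light-treated samples overlapped both groups. The log2 fold change of App was -0.19 in untreated 5xFAD against WT mice (SE 0.08, adjusted p = 0.166, edgeR), and 14.5% of the genes tested had no overlap in this comparison. It was 0.06 in light-treated against untreated 5xFAD mice (SE 0.08, adjusted p = 0.744). DESeq2 called App lower in untreated 5xFAD mice (adjusted p = 0.0414). The Thy1 to App ratio of FPKM was 0.778 to 0.884 in WT, 2.10 to 3.66 in untreated 5xFAD and 2.02 to 2.78 in light-treated samples.

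The summed FPKM of 13 neuronal markers, all of them detected, was 4925 to 5357 in WT, 3917 to 4722 in untreated 5xFAD and 4524 to 5122 in light-treated samples. Of these markers, 1 of 13 was called between untreated 5xFAD and WT mice, lower. Their median log2 fold change was -0.17 and that of all genes tested 0.01. In light-treated against untreated 5xFAD mice, 5 of 13 markers had a positive and 8 a negative log2 fold change, with a median of -0.07, although the sum was higher. Against WT mice, 2 markers (Gad1 and Gad2) were called lower in light-treated mice, with a median of -0.24. The part of neuronal markers in the App values was not tested. In tissue samples, fewer cells of a type and less RNA per cell cannot be told apart.

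Bace1, which encodes the main β-secretase, had an FPKM of 22.6, 22.4, 18.3 and 23.1 in WT samples and 17.6, 16.2, 14.3 and 21.4 in untreated 5xFAD samples. The groups overlapped through WT replicate 3 and 5xFAD replicate 4. The log2 fold change was -0.28 (SE 0.10, adjusted p = 0.0865, edgeR), and it became a call with DESeq2 (adjusted p = 0.0277) and without 5xFAD replicate 4 (adjusted p = 0.0291). Light-treated samples, at 19.0, 21.9, 18.0 and 18.1, overlapped both other groups. Their log2 fold change against untreated 5xFAD mice was 0.15 (SE 0.10, adjusted p = 0.401).

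Bace2 showed the widest relative differences among the secretase genes in HPC, at a very low level. WT samples had an FPKM of 1.08, 0.47, 0.99 and 0.49, untreated 5xFAD samples 1.27, 1.53, 1.82 and 3.07, and light-treated samples 0.28, 0.90, 0.84 and 0.81. Untreated 5xFAD samples were above every WT and every light-treated sample, while the latter 2 groups overlapped. These values rest on 62 to 201 counts per untreated 5xFAD sample, 29 to 51 per WT sample and 24 to 49 per light-treated sample. The log2 fold change was 1.25 (SE 0.41) in untreated 5xFAD against WT mice and -1.27 (SE 0.41) in light-treated against untreated 5xFAD mice, 2 comparisons that share the untreated samples. Because the group with the high values decided that Bace2 was tested at all, these differences were also tested with no filter, where edgeR's adjusted p was 0.0855 and 0.153, neither past the threshold. In the second comparison 7.63% of the genes tested had no overlap.

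Untreated 5xFAD replicate 4, the highest sample for Bace2, also had the highest summed FPKM of 6 fibroblast markers, 106, against 24.96 to 42.1 in the other untreated samples, 27.1 to 46.2 in WT and 10.4 to 27.2 in light-treated samples. Of these markers, Col1a1 and Col1a2 were called higher in untreated 5xFAD than in WT mice. Without replicate 4, the log2 fold change of Bace2 was 0.68 against WT mice and -0.70 for light-treated against untreated mice. The part of these markers in the Bace2 values was not tested.

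**Figure D2:**
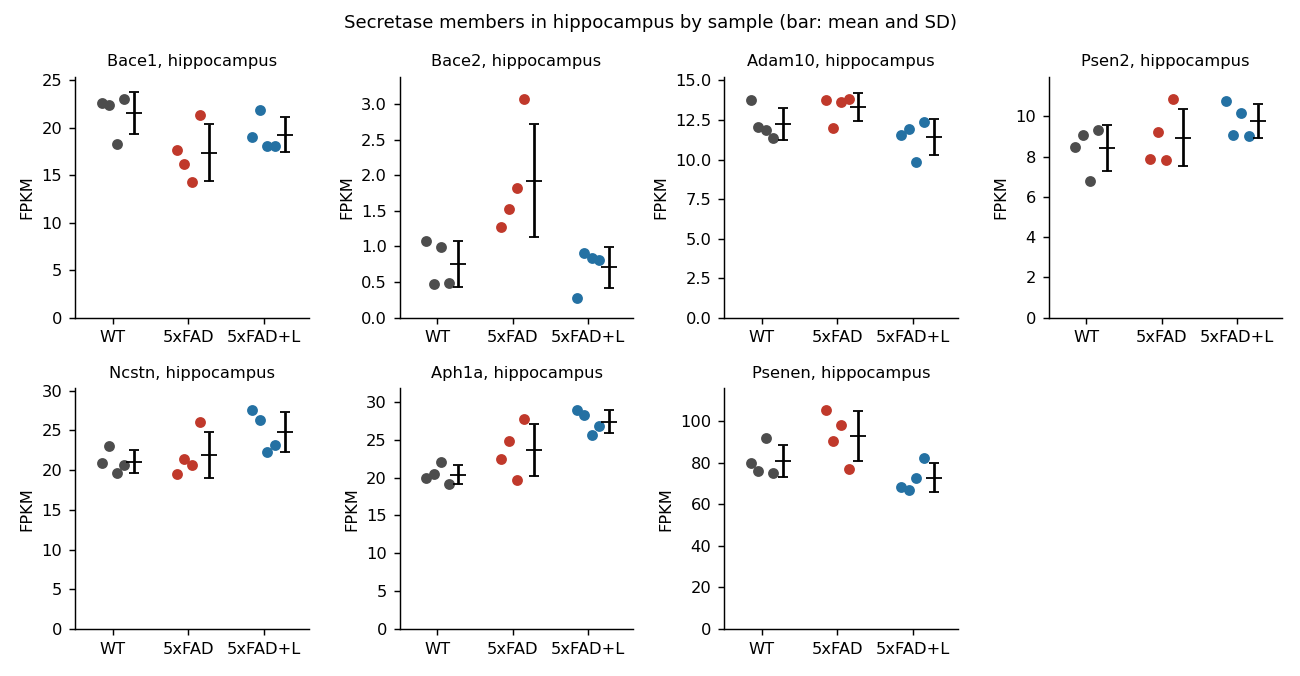
The 7 secretase genes in hippocampus as FPKM on linear axes from 0, with 1 point per sample and bars for the mean and SD (n = 4 in each group). Bace2 lies at 1.27 to 3.07 in untreated 5xFAD samples, above the other groups, and Aph1a at 25.6 to 28.9 in light-treated samples, above all WT samples.

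Adam10, the α-secretase gene, passed the test in no HPC comparison, with an FPKM of 11.4 to 13.7 in WT, 12 to 13.8 in untreated 5xFAD and 9.82 to 12.4 in light-treated samples. Its log2 fold change was 0.13 (SE 0.09, adjusted p = 0.424) in untreated 5xFAD against WT mice. In light-treated against untreated 5xFAD mice it was -0.23 (SE 0.10, adjusted p = 0.230), with an unadjusted p of 0.0330 by edgeR's test. No alternative setting brought either below the threshold.

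Of the γ-secretase genes, Aph1a came closest to a call. Its FPKM was 19.99, 20.5, 22 and 19.1 in WT samples, 22.5, 24.9, 19.7 and 27.7 in untreated 5xFAD samples and 28.9, 28.3, 25.6 and 26.8 in light-treated samples. Light-treated samples were all above the WT samples and overlapped untreated 5xFAD samples. Against WT mice the log2 fold change was 0.37 (SE 0.10, adjusted p = 0.0555, edgeR), with 14.9% of all genes without overlap. Of 16 alternative settings, 6 called it, with DESeq2 giving the lowest adjusted p of 0.0111 and the range ending at 0.177. Against untreated 5xFAD mice it was 0.21 (SE 0.10, adjusted p = 0.280).

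Psenen, which encodes the smallest subunit, had an FPKM of 80.0, 76.2, 92.0 and 75.1 in WT samples, 105, 90.8, 98.4 and 76.9 in untreated 5xFAD samples and 68.6, 67.2, 72.9 and 82.5 in light-treated samples. Only untreated 5xFAD replicate 4 fell among the light-treated samples. The log2 fold change was 0.22 (SE 0.13, adjusted p = 0.329) in untreated 5xFAD against WT mice and -0.33 (SE 0.13, adjusted p = 0.195, edgeR) in light-treated against untreated mice. Ncstn, the gene for nicastrin, was at 19.7 to 23.1 in WT, 19.5 to 26.0 in untreated 5xFAD and 22.2 to 27.5 in light-treated samples, with log2 fold changes of 0.06 (adjusted p = 0.731) and 0.18 (adjusted p = 0.333) in the same order. Psen2 was at 6.78 to 9.35, 7.82 to 10.9 and 9.05 to 10.8 in the 3 groups, with log2 fold changes of 0.14 (adjusted p = 0.517) and 0.07 (adjusted p = 0.811).

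Taking the 9 genes as a list in HPC, 1 was called higher and 0 lower in untreated 5xFAD against WT mice, where 6.48% of all genes were called higher and 2.06% lower. The median log2 fold change was 0.14 for the list and 0.01 for all genes tested. In light-treated against untreated 5xFAD mice none was called by edgeR, 3 had an unadjusted p below 0.05 (Adam10, Psenen and, kept by the filter as described, Bace2, all 3 lower) and the median was 0.06 against -0.02. The background there was 0.455% of genes called and 18.3% at an unadjusted p below 0.05. DESeq2 and limma also called none of the 9 in this comparison.

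**Figure D3:**
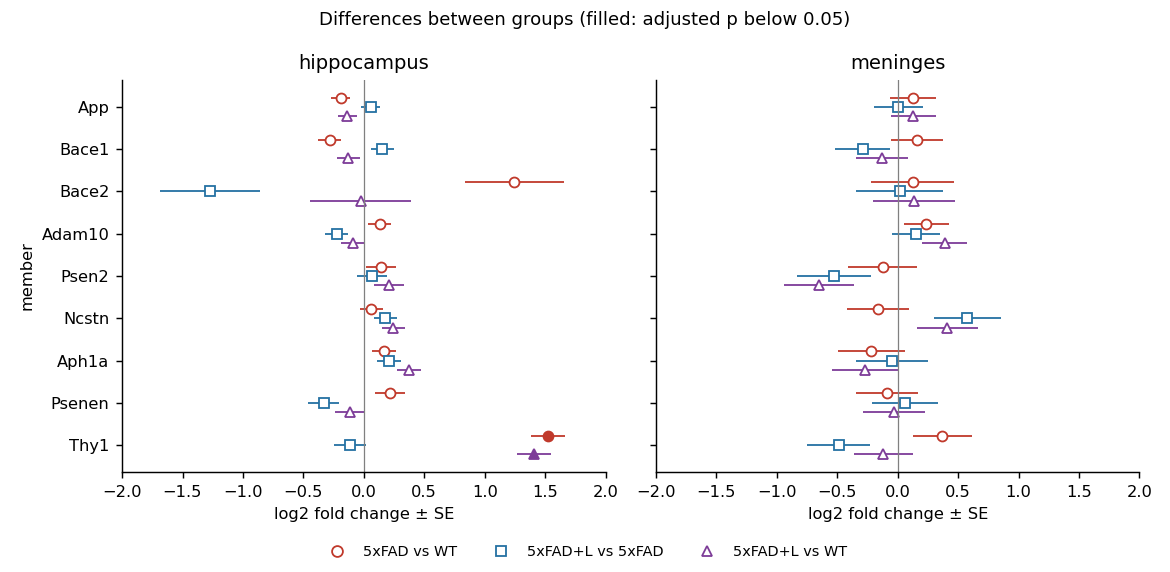
Log2 fold changes of the 9 genes in hippocampus (left) and meninges (right), with bars for the SE. Circles compare untreated 5xFAD with WT, squares light-treated with untreated 5xFAD and triangles light-treated 5xFAD with WT, and filled symbols mark an adjusted p below 0.05. Only Thy1 in hippocampus is filled, at 1.52 and 1.41.

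Other genes of the pathway were taken from 4 lists. Among 9 relatives of App and of the secretases, none was called between untreated 5xFAD and WT HPC, and their median log2 fold change was 0.02. Aplp1, a relative of App, stood at 196 ± 6.80 FPKM in WT and 196 ± 9.65 in untreated 5xFAD mice (SD, n = 4). Aph1b, another γ-secretase subunit gene, fell in light-treated 5xFAD against WT mice, from 7.71 ± 0.809 to 4.84 ± 0.357 FPKM (log2 fold change -0.65, SE 0.15, adjusted p = 0.0290). Its value in untreated 5xFAD mice was 5.87 ± 1.55. Of all genes tested, 8.54% were called between untreated 5xFAD and WT HPC and 3.59% between light-treated 5xFAD and WT HPC. Among 19 genes for adaptors and sorting of the amyloid precursor protein, none was called in an HPC comparison.

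Among 13 genes for degradation and transport of amyloid-β, 10 were tested in HPC and 3 rose in untreated 5xFAD against WT mice. Of all genes tested, 6.48% were called higher in that comparison. Ctsd, which encodes the lysosomal protease cathepsin D, rose from 327 ± 25.8 to 1516 ± 479 FPKM (log2 fold change 2.23, SE 0.23, adjusted p = 5.96e-05). Ctsb, for cathepsin B, rose from 158 ± 5.74 to 290 ± 69.3 (log2 fold change 0.89, adjusted p = 0.00251), and Clu, for clusterin, from 787 ± 49.6 to 1219 ± 124 (log2 fold change 0.64, adjusted p = 0.00146). The microglial markers given above for Thy1 rose as well. The summed FPKM of 6 astrocyte markers was 753 to 891 in WT and 906 to 3224 in untreated 5xFAD samples, with 3 of 6 called higher (Gfap, Aqp4 and Aldh1l1). The part of both cell types in these values was not tested. Ctsd, Ctsb and Clu also rose in light-treated 5xFAD against WT mice, with log2 fold changes of 1.98, 0.68 and 0.46, and none was called between the treated and untreated 5xFAD groups. Those comparisons called 3.59% and 0.455% of all genes.

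Among 12 substrates of β- and γ-secretase, Dcc, a receptor of netrin, was the single gene called. Its FPKM was 3.47 to 4.07 in WT, 1.30 to 2.62 in untreated 5xFAD and 3.96 to 4.60 in light-treated samples. It fell by 0.72 on the log2 scale in untreated 5xFAD against WT mice (SE 0.18, adjusted p = 0.0214) and rose by 0.89 in light-treated against untreated mice (SE 0.18, adjusted p = 0.0482, edgeR). Both comparisons share the untreated 5xFAD samples, so low values in that group move both. Of all genes tested, 8.54% were called in the first comparison and 0.455% in the second. The list's median was -0.31 in the first comparison and 0.18 in the second. The summed level of neuronal markers fell and rose with Dcc, as given above for App, while 8 of 13 single markers went the other way under light. Their part was not tested.

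In WT mice, 7 of the 9 genes differed between meninges and HPC, against a background of 73.0% of 15132 genes, so the count is near that of all genes. Bace2 was 31.1-fold higher in meninges (log2 fold change 4.96, SE 0.44, adjusted p = 3.31e-09), with an FPKM of 29.6, 26.8, 9.27 and 16.7 against at most 1.08 in HPC. Thy1 was 12.03-fold lower (log2 fold change -3.59, SE 0.20, adjusted p = 8.08e-12), at 21.3, 10.6, 15.6 and 15.01. App was 1.98-fold lower, with a log2 fold change of -0.98 (SE 0.11, adjusted p = 1.15e-07), and Bace1 was lower by a log2 fold change of -0.62 (adjusted p = 7.24e-04).

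Psen2 was 2.73-fold higher in WT meninges, at a log2 fold change of 1.45 (SE 0.20, adjusted p = 2.47e-06), Aph1a higher at 0.97 (adjusted p = 1.54e-04) and Psenen higher at 0.81 (adjusted p = 3.18e-04, edgeR). The called genes had no overlap between the tissues, as had 64.9% of all genes. Adam10 (log2 fold change 0.14, adjusted p = 0.288) and Ncstn (0.19, adjusted p = 0.360) did not pass. Under the filter of a mean FPKM of at least 5, Adam10 became a call (0.28, adjusted p = 0.0371, edgeR). At a threshold of 2-fold, 3 genes were called, Bace2, Psen2 and Thy1, against 51.4% of all genes. The summed FPKM of neuronal markers was 232 to 682 in WT meninges and that of fibroblast markers 1000 to 1400.

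**Figure D4:**
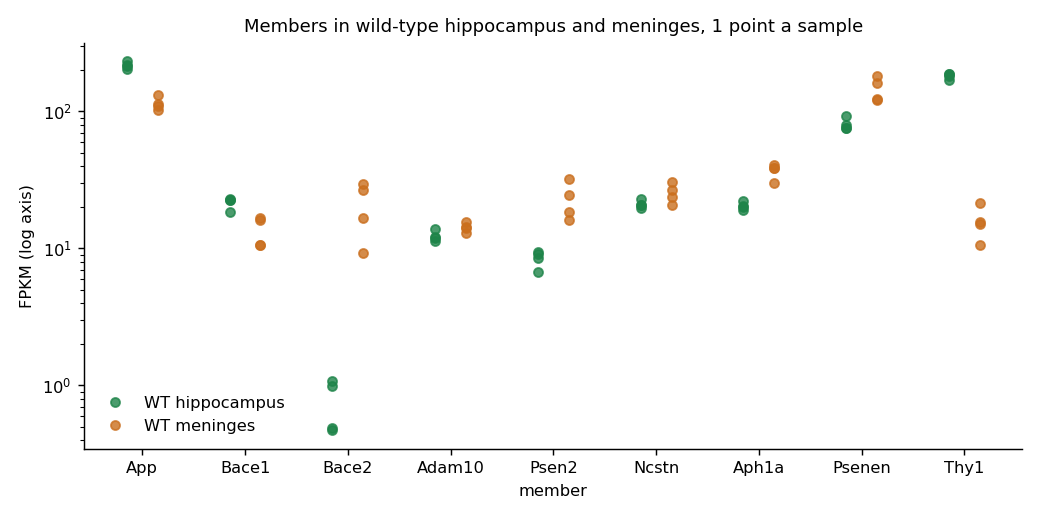
The 9 genes in WT hippocampus and WT meninges as FPKM on a log axis, 1 point per sample (n = 4 in each tissue). Bace2 lies at 0.47 to 1.08 in hippocampus and 9.27 to 29.6 in meninges, and Thy1 at 170.3 to 189 and 10.6 to 21.3.

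In meninges none of the 9 genes was called in any comparison between groups by edgeR, DESeq2 or limma. The backgrounds were 0%, 0.0140% and 0.0140% of 14318 genes for untreated 5xFAD against WT, light-treated against untreated 5xFAD and light-treated 5xFAD against WT. At an unadjusted p below 0.05 the counts were 0, 0 and 1 of the 9 genes, and 4.01%, 12.7% and 16.4% of all genes. The SE of a member's log2 fold change was 0.19 to 0.36 in this tissue, against 0.08 to 0.14 in HPC for all members but Bace2, and a missed threshold does not show that the groups were alike.

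Thy1 in untreated 5xFAD meninges was at 18.9, 18.7 and 23.9 FPKM, overlapping WT, with a log2 fold change of 0.37 (SE 0.24, adjusted p = 0.987). The 5xFAD effect on Thy1 was smaller in meninges than in HPC by 1.16 on the log2 scale (SE 0.27, adjusted p = 0.0267, edgeR's interaction test over all 22 samples), the single one of the 9 genes called, against 1.74% of all genes and a median of -0.11. That test took the samples of both tissues as independent, and whether any came from the same mouse was not checked. The difference lay between -1.31 and -0.95 over 22 alternative settings, and 14 of them kept the call. Leaving out any 1 WT HPC sample, untreated 5xFAD HPC replicate 1 or 4, or untreated 5xFAD meninges replicate 1 or 2 ended it, with adjusted p up to 0.0951. Light-treated samples were at 15.2, 13.6 and 15.6, all below the untreated 5xFAD samples, at a log2 fold change of -0.49 (SE 0.26, adjusted p = 0.438), where 20.8% of all genes had no overlap.

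App in meninges was at 131, 102, 113 and 109 FPKM in WT samples, 130, 121 and 115 in untreated 5xFAD samples and 113, 142 and 122 in light-treated samples. The groups overlapped and the log2 fold changes were 0.12 (SE 0.19, adjusted p = 0.988) and 0.01 (SE 0.20, adjusted p = 0.994) for untreated 5xFAD against WT and light-treated against untreated mice. The direction of the second changed with the scaling.

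Among the meningeal secretase genes the largest differences with light were those of Ncstn and Psen2. Ncstn was at 33.1, 41.8 and 26.4 FPKM in light-treated samples and 14.9, 21.8 and 30.3 in untreated 5xFAD samples, overlapping through a single sample of each group, with a log2 fold change of 0.58 (SE 0.27, adjusted p = 0.401). Psen2 was at 15.8, 18.9 and 10.3 in light-treated, 20.6, 24.95 and 16.0 in untreated 5xFAD and 16.1, 18.6, 24.6 and 31.9 in WT samples. Its log2 fold change was -0.53 in light-treated against untreated 5xFAD mice (SE 0.31, adjusted p = 0.470) and -0.65 against WT mice (SE 0.29, adjusted p = 0.288). Adam10 was at 19.8, 18.5 and 17.1 in light-treated samples, above all WT samples, 13.0 to 15.6, at a log2 fold change of 0.39 (SE 0.19, adjusted p = 0.317), where 12.3% of all genes had no overlap.

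Bace2 in meninges depended on the unit. Its FPKM was 34.1, 43.3 and 15.3 in light-treated and 12.8, 20.8 and 29.1 in untreated 5xFAD samples, a mean of 30.9 ± 14.2 against 20.9 ± 8.17 (SD, n = 3), while the log2 fold change of the counts was 0.02 (SE 0.36, adjusted p = 0.991). On log2(FPKM + 1) it was 0.50 (adjusted p = 0.662, limma). An implied transcript length was computed from each count, the FPKM and the summed counts of the library. If the deposited FPKM used another library total, all lengths of that library would shift together. For Bace2 the implied length was 2560 to 3562 bases in light-treated and 3774 to 4554 in untreated 5xFAD samples. This was not particular to Bace2. The length was shorter in every light-treated than in every untreated 5xFAD sample for 8 of the 9 members, all but Psenen, and for 54.1% of 14090 genes. The FPKM of Bace1, Aph1a and Psenen overlapped between all 3 meninges groups.

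In mLECs none of the 9 genes was called by edgeR in any comparison, against backgrounds of 0%, 0% and 0.0122% of 8188 genes in the order given for meninges. At an unadjusted p below 0.05 the counts were 1, 1 and 0 of 9, and 3.81%, 4.01% and 6.72% of all genes. The biological coefficient of variation, the spread between replicates that edgeR estimated, was 1.89, against 0.198 in HPC and 0.350 in meninges. Here too a missed threshold does not show that the groups were alike. Single libraries held no or few counts of a gene that others of their group held at a high level. Values are therefore given for each library and fold changes are not. mLEC levels come from a separate table and are not compared with the tissues.

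App was detected in all 10 mLEC libraries, at 196, 445, 130 and 319 FPKM in WT, 154, 144 and 199.9 in untreated 5xFAD and 112, 174 and 135 in light-treated libraries. Adam10 was detected in all 10 as well, from 13.6 to 106. Psenen was at 53.8, 213, 281 and 112 in WT libraries, 196, 194 and 181 in untreated 5xFAD and 99.6, 58.7 and 180.1 in light-treated libraries. The light-treated libraries were all below the untreated 5xFAD libraries for Psenen, with the nearest values at 180.1 and 181, and 10.1% of all genes had no overlap there.

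Bace2 was at 58.1 to 138 FPKM in WT, 28.7 to 64.2 in untreated 5xFAD and 40.9, 63.0 and 0.08 in light-treated libraries. Light-treated replicate 3, with the value of 0.08, also held 0 counts of Psen2, which was at 44.1 and 63.4 in the other light-treated libraries. A count of 0 in this library allows up to 0.199 CPM, counts scaled to the library total. Ncstn was at 0.06 in untreated 5xFAD replicate 4, where the other untreated libraries had 116 and 34.6. Bace1 was low throughout, from 0 to 10.4.

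Aph1a was nearly absent from the untreated 5xFAD libraries, with counts of 0, 0 and 1, and present in the light-treated libraries with counts of 231, 355 and 131. WT libraries held 0, 10, 381 and 936 counts and so covered both. The light-treated libraries were all above the untreated 5xFAD libraries, where 10.1% of all genes had no overlap. Single libraries were also at or near 0 for other members, as given above. Whether such low values came from the cells or from the library was not tested. edgeR did not call the difference (adjusted p = 1), and DESeq2 did (adjusted p = 0.0496), as it did for untreated 5xFAD against WT mice (adjusted p = 0.0352). Both calls share the untreated 5xFAD libraries and used the filter of an FPKM of 1 in 3 or more libraries. Aph1a reached that FPKM in 2 of 4 WT, 0 of 3 untreated 5xFAD and 3 of 3 light-treated libraries. It passed only with the light-treated libraries, where it was high, and DESeq2 was not run without the filter. The 0 counts allow up to 0.152 and 0.211 CPM in the untreated 5xFAD libraries.

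Thy1 had 0 counts in WT mLEC replicates 1, 2 and 4 and 13.3 FPKM in replicate 3. It was at 0.35, 2.47 and 6.74 in untreated 5xFAD and 11.4, 0.07 and 0.97 in light-treated libraries. The 3 groups overlapped. The summed FPKM of 6 fibroblast markers ran from 14.0 to 612 over the mLEC libraries. Leaving out WT replicates 2 and 4, which had no Lyve1 or Pdpn, a setting added after the data were seen, left the number of members called at 0 in both comparisons with WT.

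**Figure D5:**
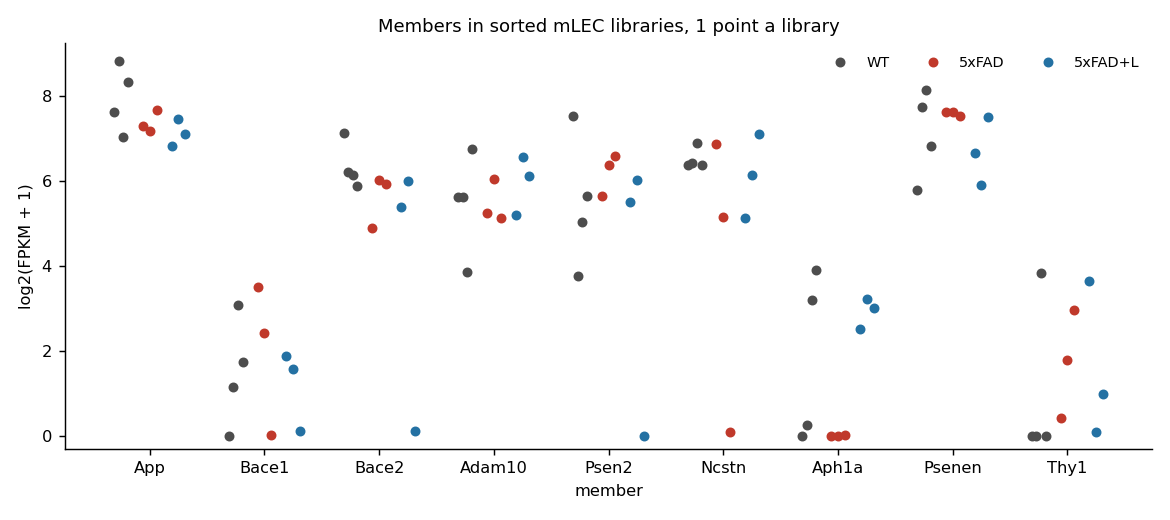
The 9 genes in sorted mLEC libraries as log2(FPKM + 1), 1 point per library (4 WT, 3 untreated 5xFAD and 3 light-treated 5xFAD). App, Adam10 and Psenen are detected in every library, while Aph1a lies at or near 0 (counts of 0, 0 and 1) in untreated 5xFAD libraries and single libraries of Bace2, Psen2 and Ncstn drop to the bottom of the axis.

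The genes whose level followed that of Thy1 most closely over the 12 HPC samples, by Pearson's r of log2(FPKM + 1), were Naglu (0.988), Psmb8 (0.984), Ctsz (0.983), Tent5c (0.982) and Ptpn6 (0.981). For App they were Snrk (0.957), Cpeb3 (0.909), Map3k13 (0.905), Dcun1d4 (0.897) and Usp33 (0.892). Over the 10 meninges samples they were Frmd6 (0.905) and Septin11 (0.902) for Thy1 and Pkia (0.941) and Kit (0.932) for App, followed by Col6a3, Fam102b and Dock4 and by Wdr41, Fbxo27 and Mief1. The samples fall into groups that differ in Thy1 and share libraries and depth between genes, so these values are a description.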

How the data were processed

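RNA-seq libraries were made from HPC, meninges and sorted mLECs with an oligo-dT Smart-seq2 protocol. According to the methods, reads were filtered with fastp and quantified with RSEM, while the submitters' processing notes name Trimmomatic, HISAT2, StringTie, DESeq2 and the mm10 build. The authors deposited expected counts per gene, which are not normalized, and beside them FPKM values, which the authors scaled for transcript length and library size. HPC and meninges share a table, and mLECs have a table of their own. Of 22337 gene identifiers, 22232 were found in GENCODE vM21.

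After rounding to whole numbers, expected counts went into edgeR's quasi-likelihood test (version 4.0.16, R 4.3.3) with TMM scaling, fitting the 3 groups of a tissue together and, for meninges against HPC, all 22 samples of both. Tested genes reached an FPKM of 1 in 3 or more samples of the fit. A call is a Benjamini-Hochberg adjusted p below 0.05 over all tested genes. The scripts were tested on simulated data, which does not show that changes in meninges or mLECs would be found. Alternatives were median-of-ratios scaling, no filter, a mean FPKM of at least 5, DESeq2 1.42.0, limma 3.58.1 on log2(FPKM + 1) and log2(FPKM + 0.1), a threshold of 2-fold, the replicate number as a block, 2 groups alone and leaving out each sample.

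The members, the lists and the tests were chosen with earlier results of these data known. All members are named. From the pathway lists the counts and the called genes, up to 5 a comparison, are given, and the 5 genes most like App and Thy1 leave out Gm and Rik symbols. Intervals for counts of 0 use 3 counts and cover counting error only. Replicates differed by more than counting error in every tissue. Repeat libraries of a sample can do so too, so this does not exclude repeats. The methods give a single animal per sample, and each library was counted as its own replicate.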

Additional observations from a re-analysis of the deposited data

Results flagged for a closer look

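The 5xFAD effect on Thy1 differed between tissues by an interaction test, with a value of -1.16 on the log2 scale for meninges minus HPC, as given above. In groups of 4 samples, the gap between an extreme sample and its neighbour was compared with the range of the group (Dixon's ratio). Of 45 groups tested, 6 passed, where chance alone passes about 1 in 20. The low samples were App in untreated 5xFAD HPC replicate 1 (FPKM of 170.2, others 192 to 196), Bace1 in WT HPC replicate 3 (18.3, others 22.4 to 23.1), Bace2 in light-treated HPC replicate 1 (0.28, others 0.81 to 0.90) and Adam10 in untreated 5xFAD HPC replicate 2 (12, others 13.6 to 13.8). The high ones were Ncstn (117.8, others 80.96 to 84.1) and Thy1 (13.3, others 0), both in WT mLEC replicate 3.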

How the results depend on the processing

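The number of members called by edgeR changed as follows. In HPC, untreated 5xFAD against WT gave 1 gene called, 4 with DESeq2 (App, Bace1 and Bace2 beside Thy1), 2 with limma on log2(FPKM + 1) (Bace2 beside Thy1) and 1 to 2 without each replicate. In these settings Bace2 passed the filter through the untreated 5xFAD samples, where it was high. Light-treated 5xFAD against WT HPC gave 1, and 2 (Aph1a beside Thy1) under the filter of a mean FPKM of 5, DESeq2, limma at both pseudocounts and the 2 groups alone, and 1 to 2 without each replicate. In mLECs, DESeq2 called 1 gene, Aph1a, in each of untreated 5xFAD against WT and light-treated against untreated 5xFAD, where edgeR called 0. Aph1a passed the filter there only with the light-treated libraries, where it was high. WT meninges against WT HPC gave 7, and 3 at a threshold of 2-fold. Adam10 was called there as well under the filter of a mean FPKM of 5. The interaction gave 1, and 0 to 1 without each replicate. Shares of all genes called by DESeq2 or limma are not given here. The causes were not tested.

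The sign of small fold changes in meninges also changed. Light-treated against untreated 5xFAD, App was at -0.00439 with median-of-ratios scaling, -0.00434 with DESeq2, -0.00215 with the 2 groups alone and -0.0364 under the filter of a mean FPKM of 5, where Bace2 was at -0.0315. Aph1a was at 0.0134 with no filter and at 0.11 with limma at both pseudocounts. Against WT, Bace1 was at 0.000533 and 0.00247 with limma in light-treated mice. None of these was a call. Leaving out each replicate, log2 fold changes that crossed 0 ran, for untreated 5xFAD against WT, from -0.0140 to 0.10 for Ncstn in HPC, and in meninges from -0.21 to 0.35 for Bace2, -0.46 to 0.0650 for Ncstn, -0.30 to 0.12 for Psen2 and -0.22 to 0.0371 for Psenen. For light-treated against untreated 5xFAD they ran from -0.21 to 0.0139 for Thy1 in HPC, and in meninges from -0.25 to 0.20 for Aph1a, -0.0269 to 0.0349 for App, -0.21 to 0.34 for Bace2 and -0.11 to 0.25 for Psenen. For light-treated 5xFAD against WT they ran from -0.19 to 0.22 for Bace2 in HPC, and in meninges from -0.0847 to 0.34 for Bace2, -0.20 to 0.16 for Psenen and -0.28 to 0.0617 for Thy1, and for the interaction from -0.0146 to 0.20 for Adam10.

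With the replicate block, the interaction of Thy1 was -1.14 (adjusted p = 0.0476, edgeR), and Bace2 in meninges changed sign, to -0.11 for untreated and -0.0886 for light-treated 5xFAD against WT. The block changed no number of members called. Within a tissue, samples of different groups with the same number did not deviate together (r from -0.280 to 0.0905 in HPC, -0.310 to 0.244 in meninges and -0.0334 to 0.0125 in mLECs), so the numbers were not taken as pairs there. Whether HPC and meninges samples with the same number came from the same mouse was not checked. The block did not link the tissues, and the tests across HPC and meninges took their samples as independent. Of 1157 alternative fold changes over 72 results in HPC and meninges, 43 changed sign. In mLECs, whose fold changes are not given, 37 of 430 did. What limited precision in mLECs was not tested. Genes of the other pathway lists were tested with edgeR as described, and their calls were not recomputed under the alternatives.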

Other observations

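The implied transcript length was looked at after the values were seen, with the limit given in meninges for Bace2. For Thy1 in HPC it was 1713 to 1740 bases in WT samples, 1754 to 1758 in untreated 5xFAD and 1756 to 1768 in light-treated samples. The 5xFAD values were all longer than the WT values, as for 1.78% of 12922 genes in untreated and 22.2% of 12923 genes in light-treated mice. In meninges it was 1778 to 1847 in WT and 1769 to 1790 in untreated 5xFAD samples. For App in HPC it was 3281 to 3303, 3298 to 3352 and 3293 to 3358 in the 3 groups, which overlapped. For Aph1a in HPC the values ran from 1720 to 2086, 1679 to 2163 and 1727 to 2035 in the 3 groups, which overlapped.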
